A study of Mus musculus with 6 samples.

Results

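The genes described here are 44 drivers of the cell cycle, chosen by symbol from a list of cyclins, cyclin-dependent kinases, mitotic kinases, checkpoint, kinetochore, spindle and cytokinesis genes. All 44 were found among the 52459 genes counted in mouse livers, and all 44 passed the filter on low counts. By role, 6 belong to the passage from G1 into S phase, 2 act in S phase and centriole copying (Ccna2, Plk4) and 36 act in mitosis. Their levels in 3 livers in which the antioxidant enzyme gene Prdx2 was targeted (sgPrdx2) were compared with those in 3 control livers (sgCtrl), liver by liver and between G1/S and mitotic genes.

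A cell that leaves rest first makes D-type cyclins, which activate CDK4, and then E-type cyclins, and the transcription factors of the E2F family switch on the genes of DNA synthesis. The genes of mitosis are transcribed later, in G2, under the MuvB complex with B-Myb and FOXM1, and their products build the spindle, attach and sort the chromosomes and split the cell. Most adult hepatocytes rest outside the cycle, and in the diseased liver mitotic RNA can come from hepatocytes, tumor cells, immune cells, bile duct cells or fibroblasts.

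RNA came from whole livers of male Alb-Cre/Cas9 mice on a C57BL/6J background, aged 8 months, which all expressed Cas9. Each mouse received an AAV8 vector with a U6-driven guide RNA at 4 to 5 weeks, sgCtrl in mice 5.1, 7.1 and 7.2 and sgPrdx2 in mice 1.1, 1.3 and 3.2. All 6 were given diethylnitrosamine (DEN), a liver carcinogen, at 100 mg/kg 3 weeks later and, after 1 further week, 6 months of CDA-HFD, a diet rich in fat and lacking choline. Alb-Cre turns on Cas9 in the liver, and the vector brings the guide RNA to hepatocytes but, the paper proposes, not to each of them. The libraries also hold the RNA of all other liver cells, so that fewer dividing cells and less of their RNA per cell cannot be told apart.

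Total counts per liver ranged from 37462102 to 56865293, and 3 counts stand for 0.0555 to 0.0921 CPM (counts normalized to library size, with edgeR's TMM factors), which covers counting error only. Prdx2 RNA itself was at 109, 117 and 132 CPM in sgCtrl livers 5.1, 7.1 and 7.2 and at 99.0, 112 and 149 CPM in sgPrdx2 livers 1.1, 1.3 and 3.2, so that its RNA level does not separate the groups. Of 17032 genes tested, 567 (3.33%) had an adjusted p under 0.05 by edgeR's quasi-likelihood test, 262 lower and 305 higher in sgPrdx2 livers. That count was 0 without sgCtrl liver 5.1 or 7.2 or sgPrdx2 liver 1.1 or 1.3, 394 without 7.1 and 619 without 3.2. Liver values are given in the order 5.1, 7.1 and 7.2 for sgCtrl and 1.1, 1.3 and 3.2 for sgPrdx2, fold changes are those of sgPrdx2 over sgCtrl on the log2 scale, and adjusted p-values are from the same edgeR test over all 17032 genes.

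Mitotic genes were mostly lower in sgPrdx2 livers, whereas Ccnd1, Cdk4, Ccne1 and Ccne2 of the G1/S members lay close to the control level. The remaining G1/S members, E2f1 (log2 fold change -0.25) and E2f8 (-0.62), were lower, and 15 further G1/S genes outside the members had a median of -0.22. No single member passed the test. The median log2 fold change was -0.53 (0.691-fold) over the 36 mitotic members and 0.05 over the 6 G1/S members, beside -0.02 over all genes tested. Fitted fold changes were below 0 for 35 of 36 mitotic members, Cenpa being the exception, and for 2 of 6 G1/S members, beside 51.7% of all genes tested. With scaling to 6 housekeeping genes the median of all genes moved to -0.38, and the medians relative to it were -0.52 for mitotic and 0.03 for G1/S members, against -0.52 and 0.07 with TMM. All 44 members were below 0 with that scaling and with total counts.

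None of the 44 members had an adjusted p under 0.05 (edgeR), where 3.33% of all genes tested did. The smallest adjusted p-values were 0.0586 for Incenp and 0.0668 for Bub1b. Unadjusted p was under 0.05 for 14 members, all lower in sgPrdx2 livers, 13 of them mitotic and the other Plk4, where 11.9% of all genes tested were lower at that p. The count of 14 was 28 without sgCtrl liver 5.1 and 7 without 7.1, 6 without 7.2 and 7 without sgPrdx2 liver 1.1. DESeq2 called 6 members lower (Plk4, Bub1b, Incenp, Top2a, Kif23 and Prc1), where it called 6.07% of all genes with an adjusted p lower.

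The livers did not split cleanly by group. On a log2 scale against the mean of the sgCtrl livers, the median mitotic member stood at -0.54, 0.21 and 0.29 in sgCtrl livers and at -0.73, -0.34 and -0.38 in sgPrdx2 livers. Control liver 5.1 therefore lay among the sgPrdx2 livers, and it was the lowest control for 34 of the 36 mitotic members. The median G1/S member stood at -0.09, 0.01 and 0.05 in sgCtrl livers and at -0.07, -0.08 and 0.14 in sgPrdx2 livers, a narrower range in which the groups overlapped.

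**Figure D1:**
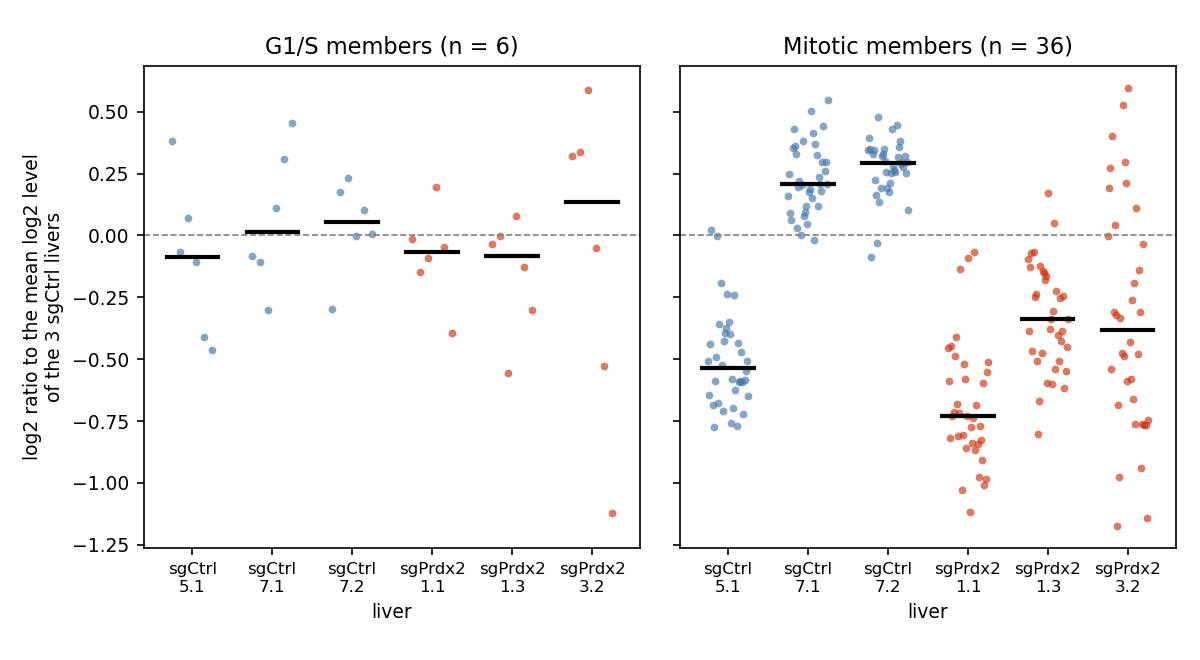
Log2 ratio of each member to its mean log2 level in the 3 sgCtrl livers (CPM plus 0.1), by liver, for the 6 G1/S and 36 mitotic members. Points are genes, black bars are medians and the dashed line is the sgCtrl mean. The mitotic medians of livers 7.1 (0.21) and 7.2 (0.29) lie above those of all sgPrdx2 livers, and that of sgCtrl liver 5.1 (-0.54) does not.

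Pair by pair, sgPrdx2 livers 1.1, 1.3 and 3.2 were lower than sgCtrl liver 7.1 for 36, 35 and 30 of the 36 mitotic members, and lower than liver 7.2 for 36, 35 and 33. Against liver 5.1 the same counts were 25, 7 and 16, so that the direction held against 2 of the 3 controls. These 2 controls, 7.1 and 7.2, share the first number of their labels, as do sgPrdx2 livers 1.1 and 1.3. The labels do not say what that number stands for. Without liver 5.1 the mitotic median was -0.75, and without 7.1, 7.2 or sgPrdx2 liver 1.1 it was -0.40, -0.39 and -0.36. The difference between the mitotic and the G1/S median within each liver was -0.45, 0.19 and 0.24 in sgCtrl livers and -0.66, -0.26 and -0.52 in sgPrdx2 livers, and here too liver 5.1 fell inside the sgPrdx2 range.

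Summed over the 36 mitotic genes, normalized levels were 171, 281 and 289 CPM in sgCtrl livers and 150, 195 and 199 CPM in sgPrdx2 livers. Liver 1.1 was the lowest of the 6 for 20 mitotic members, liver 5.1 for 9 and liver 3.2 for 7, whereas the highest value was in 7.2 for 20, in 7.1 for 13 and in 3.2 for 3. The groups did not overlap for 6 members, Plk4, Mybl2, Bub1, Bub1b, Incenp and Kif23, all lower in sgPrdx2 livers, where 17.5% of all genes tested had this pattern.

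**Figure D2:**
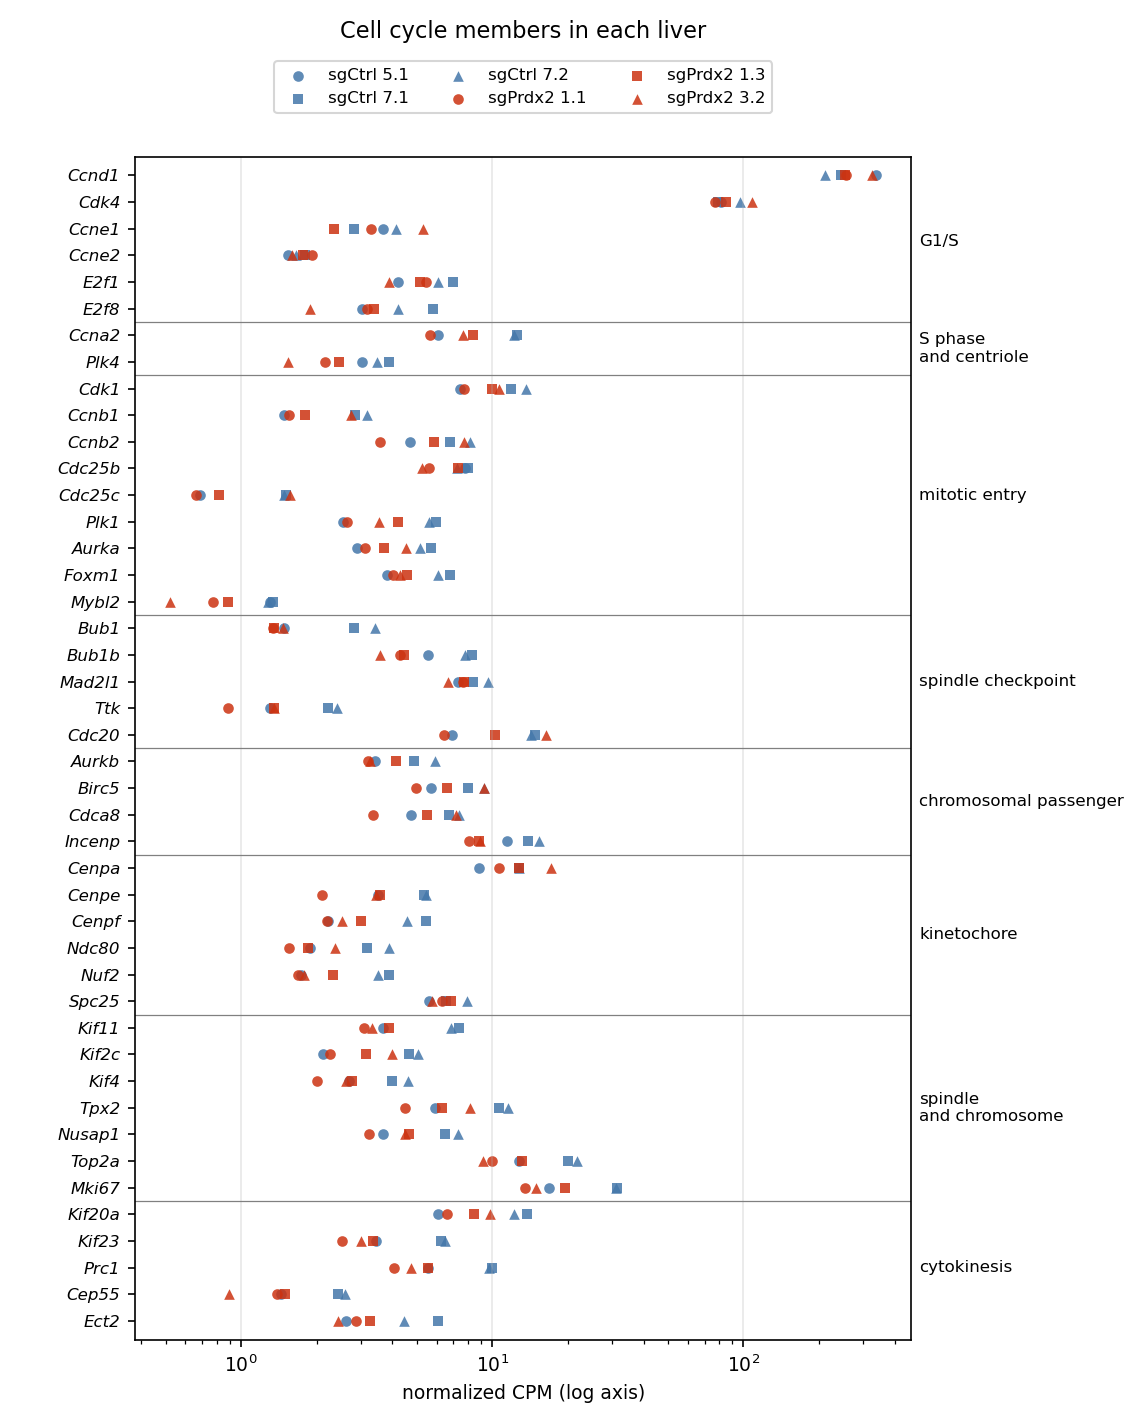
Normalized CPM of each of the 44 members (log axis) in the 3 sgCtrl (blue) and 3 sgPrdx2 (red) livers, with members ordered by role. For most mitotic members the sgCtrl 5.1 circle lies with the red points while sgCtrl 7.1 and 7.2 lie to the right, and for the G1/S members the colours overlap.

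The promoters of mitotic genes share short sequence elements that serve as background to this division. The CHR (cell cycle genes homology region) is the element through which the DREAM and MuvB complexes keep mitotic genes silent at rest and switch them on in G2, and CCAAT is the element of the activator NF-Y. RefSeq promoters (GRCm38.p6, 250 bases before to 50 after the start of transcription) matched 35 of the 44 members by symbol. They were searched on both strands for the CHR in its usual form TTTGAA and in the less common form spelled TTCGAA, for CCAAT, and for an E2F element in 4 forms (TTTCCCGC, TTTCGCGC, TTTGCCGC or TTTGGCGC). No match of one element overlapped a match of another in the stretches printed here.

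A CHR was present in 23 of 30 mitotic members with a promoter (76.7%), beside 17% of the 11763 tested genes with one and 21.7% of all promoters in the table by gene. CCAAT was present in 22 of 30 (73.3%), beside 42.1% of tested genes and 41.1% of all, and both together in 20 of 30 (66.7%), beside 6.83% and 8.61%. Of the 4 G1/S members with a promoter, E2f8 alone held a CHR and a CCAAT. The E2F letters were found in the Cdk1 promoter alone among members, and in 4.27% of tested genes and 2.60% of all.

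The 150 bases before the start of 6 members are shown, 5′ to 3′, with CHR, CCAAT and E2F letters of either strand in capitals. Cdc20, Kif11 and Top2a show the mitotic arrangement with a CHR close to the start, Cdk1 adds the E2F letters, and E2f8 and Ccne1 are G1/S members with and without these elements. They lie at chr4:118437344-118437493, minus strand (Cdc20), chr19:37376232-37376381, plus strand (Kif11), chr11:99024190-99024339, minus strand (Top2a), chr10:69352913-69353062, minus strand (Cdk1), chr7:48881597-48881746, minus strand (E2f8) and chr7:38107491-38107640, minus strand (Ccne1).
Cdc20: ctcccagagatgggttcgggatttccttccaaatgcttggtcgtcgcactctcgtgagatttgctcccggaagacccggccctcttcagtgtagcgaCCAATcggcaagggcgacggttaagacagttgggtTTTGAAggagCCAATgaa
Kif11: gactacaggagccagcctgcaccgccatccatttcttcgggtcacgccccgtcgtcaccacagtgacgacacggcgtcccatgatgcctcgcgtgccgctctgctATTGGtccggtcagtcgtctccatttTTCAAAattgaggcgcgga
Top2a: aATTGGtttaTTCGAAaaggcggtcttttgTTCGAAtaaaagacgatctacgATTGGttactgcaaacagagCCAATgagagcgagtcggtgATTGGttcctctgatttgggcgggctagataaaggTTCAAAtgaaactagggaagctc
Cdk1: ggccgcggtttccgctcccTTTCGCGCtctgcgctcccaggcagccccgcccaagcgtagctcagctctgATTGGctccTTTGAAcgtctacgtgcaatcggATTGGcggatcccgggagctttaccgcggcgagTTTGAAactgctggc
E2f8: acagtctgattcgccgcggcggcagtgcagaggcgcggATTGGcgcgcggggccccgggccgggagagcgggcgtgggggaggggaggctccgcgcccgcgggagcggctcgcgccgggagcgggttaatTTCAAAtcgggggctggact
Ccne1: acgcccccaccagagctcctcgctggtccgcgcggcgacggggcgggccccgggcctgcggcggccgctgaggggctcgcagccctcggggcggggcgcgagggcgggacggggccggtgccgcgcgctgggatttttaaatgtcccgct

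In these stretches the CHR nearest to the start begins 18 bases before it in Cdc20, 19 in Kif11, 23 in Top2a, 15 in Cdk1 and 20 in E2f8. Among mitotic members the median log2 fold change was -0.62 over the 23 with a CHR and -0.50 over the 7 without. A match is a match of letters and was not tested for binding, and the absence of one says only that these letters are not in the window.

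Among the G1/S members, Ccnd1 encodes cyclin D1, whose RNA was the most abundant of the 44 per length (70.6 CPM per kb of exon in sgCtrl livers, against 41.8 for Cdk4 and at most 6.99, for Cenpa, among the others). It was at 337, 244 and 211 CPM in sgCtrl and 256, 253 and 324 CPM in sgPrdx2 livers, with a log2 fold change of 0.07 (SE 0.21, adjusted p = 0.848), and liver 5.1, low for mitotic genes, was the highest of the 6. Cdk4, its partner kinase, was at 81.6, 79.4 and 96.7 CPM and 77.2, 85.3 and 108 CPM, with a log2 fold change of 0.07 (SE 0.17, adjusted p = 0.815). Both spread about evenly around the same level in the 2 groups.

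The cyclins E start DNA synthesis with CDK2. Ccne1 was at 3.68, 2.83 and 4.13 CPM in sgCtrl and 3.28, 2.35 and 5.31 CPM in sgPrdx2 livers, with a log2 fold change of 0.03 (SE 0.31, adjusted p = 0.960), and sgPrdx2 livers held both its lowest and its highest value. Ccne2 was at 1.53, 1.80 and 1.66 CPM and 1.91, 1.76 and 1.60 CPM, the tightest of the G1/S members, with a log2 fold change of 0.08 (SE 0.20, adjusted p = 0.826). With scaling to housekeeping genes or to total counts the fitted values of Ccnd1, Cdk4, Ccne1 and Ccne2 were all below 0, where the median of all genes was -0.38 and -0.39.

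The 2 E2F members were the G1/S genes with fitted values below 0. E2f1, an activator of S phase genes, was at 4.20, 6.98 and 6.05 CPM in sgCtrl and 5.45, 5.14 and 3.87 CPM in sgPrdx2 livers, with a log2 fold change of -0.25 (SE 0.23, adjusted p = 0.528) and overlapping groups. E2f8, an atypical E2F that represses E2F targets late in S phase and is tied to polyploid hepatocytes, was at 3.02, 5.78 and 4.21 CPM and 3.17, 3.38 and 1.87 CPM, with a log2 fold change of -0.62 (SE 0.31, adjusted p = 0.255). Its level in liver 3.2 was the lowest of the 6, and liver 5.1 lay with livers 1.1 and 1.3.

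Between the G1/S and the mitotic genes stand Ccna2 and Plk4. Ccna2, the cyclin of S phase and G2, was at 6.08, 12.5 and 12.2 CPM in sgCtrl and 5.63, 8.38 and 7.68 CPM in sgPrdx2 livers, with a log2 fold change of -0.50 (SE 0.29, adjusted p = 0.317), and it showed the mitotic pattern, with livers 5.1 and 1.1 lowest. Plk4, the kinase that starts centriole duplication, was at 3.02, 3.87 and 3.48 CPM and 2.17, 2.46 and 1.54 CPM without overlap, with a log2 fold change of -0.74 (SE 0.23, adjusted p = 0.107). DESeq2 gave Plk4 an adjusted p of 0.0450.

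The 9 genes of mitotic entry had a median log2 fold change of -0.31, all 9 below 0 and 1 at an unadjusted p under 0.05. Over all genes tested, the background for this and each later role, 51.7% were below 0 and 11.9% were lower at that p. Cdk1, the kinase that drives entry, was at 7.47, 11.9 and 13.6 CPM in sgCtrl and 7.75, 9.95 and 10.6 CPM in sgPrdx2 livers, with a log2 fold change of -0.22 (SE 0.24, adjusted p = 0.594). Its activator Ccnb1 (cyclin B1) was at 1.49, 2.85 and 3.16 CPM and 1.55, 1.79 and 2.73 CPM, with a log2 fold change of -0.31 (SE 0.34, adjusted p = 0.596), and liver 3.2 stood close to sgCtrl livers 7.1 and 7.2. Both genes overlapped between groups.

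Mybl2 encodes B-Myb, the factor that joins MuvB to switch on mitotic promoters, and was one of the 2 entry genes with the smallest p. It was at 1.3, 1.33 and 1.27 CPM in sgCtrl and 0.775, 0.888 and 0.522 CPM in sgPrdx2 livers, with a log2 fold change of -0.82 (SE 0.27, adjusted p = 0.117). The 3 controls were nearly equal here, liver 5.1 included, and the groups did not overlap, though the counts behind these values were low, between 17 in liver 3.2 and 67 in liver 7.2. Cdc25b, a phosphatase that activates CDK1, was at 7.79, 8.03 and 7.23 CPM and 5.61, 7.30 and 5.25 CPM, with a log2 fold change of -0.34 (SE 0.17, adjusted p = 0.261). The other entry genes, Ccnb2, Cdc25c, Plk1, Aurka and Foxm1, had fold changes between -0.44 (Plk1) and -0.20 (Ccnb2).

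The 5 genes of the spindle checkpoint, which holds the cell until each chromosome is attached, had a median log2 fold change of -0.73, all 5 below 0 and 3 at an unadjusted p under 0.05. Bub1b, the checkpoint protein BUBR1 (chr2:118598211-118641591, plus strand, GRCm38), was at 5.53, 8.30 and 7.82 CPM in sgCtrl and 4.28, 4.44 and 3.56 CPM in sgPrdx2 livers, with a log2 fold change of -0.81 (SE 0.20, adjusted p = 0.0668). Bub1, the kinase that recruits it, was at 1.49, 2.80 and 3.42 CPM and 1.34, 1.35 and 1.47 CPM, with a log2 fold change of -0.89 (SE 0.32, adjusted p = 0.140), the most negative value of the 44. Neither overlapped between groups, although for Bub1 liver 5.1 stood barely above liver 3.2. Ttk had a fold change of -0.73, whereas Mad2l1 (-0.20) and Cdc20 (-0.13), the coactivator that the checkpoint holds inactive, were near 0 and overlapped.

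Of the chromosomal passenger complex, which corrects attachments and guides cytokinesis, all 4 members were below 0 and 1 had an unadjusted p under 0.05. Incenp, the scaffold (chr19:9872296-9899551, minus strand, GRCm38), was at 11.4, 13.9 and 15.4 CPM in sgCtrl and 8.09, 8.88 and 8.94 CPM in sgPrdx2 livers without overlap, with a log2 fold change of -0.65 (SE 0.15, adjusted p = 0.0586). This was the smallest p among the members, and over the 14 other settings its adjusted p ran from 0.00723 (DESeq2) to 0.195, under 0.05 in 5. Aurkb, the kinase subunit, was at 3.40, 4.87 and 5.90 CPM and 3.19, 4.14 and 3.26 CPM, with a log2 fold change of -0.42 (SE 0.24, adjusted p = 0.312). The other 2 subunits, Birc5 (survivin) and Cdca8 (borealin), had fold changes of -0.14 and -0.24.

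At the kinetochore, the protein plate that links chromosomes to microtubules, 4 of 6 genes had values near -0.65 and 2 did not. Cenpe, the kinetochore motor, was at 3.52, 5.34 and 5.42 CPM in sgCtrl and 2.10, 3.57 and 3.44 CPM in sgPrdx2 livers, with a log2 fold change of -0.65 (SE 0.27, adjusted p = 0.185). Ndc80, the microtubule anchor, was at 1.87, 3.18 and 3.88 CPM and 1.55, 1.85 and 2.37 CPM, with a log2 fold change of -0.64 (SE 0.31, adjusted p = 0.240). For both, liver 5.1 lay at the sgPrdx2 level. Cenpf (-0.67) and the Ndc80 partner Nuf2 (-0.66) were similar, and Spc25 of the same complex was at -0.08. Cenpa, the histone that marks centromeres, was the 1 mitotic member above 0, at 0.23 with TMM and at -0.16 with scaling to housekeeping genes.

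The 7 genes of the spindle and of chromosome structure had a median of -0.62, with 4 at an unadjusted p under 0.05. Top2a, the topoisomerase that untangles DNA, was at 12.8, 20.1 and 21.7 CPM in sgCtrl and 9.93, 13.2 and 9.18 CPM in sgPrdx2 livers, with a log2 fold change of -0.75 (SE 0.23, adjusted p = 0.104). Mki67, which encodes the proliferation marker Ki-67, was at 16.8, 31.3 and 31.2 CPM and 13.5, 19.4 and 14.9 CPM, with a log2 fold change of -0.73 (SE 0.26, adjusted p = 0.138). Livers 7.1 and 7.2 were nearly equal for Mki67 and stood apart from the other 4. Kif11, the motor that separates the spindle poles, was at 3.65, 7.38 and 6.83 CPM and 3.08, 3.88 and 3.32 CPM, with a log2 fold change of -0.80 (SE 0.27, adjusted p = 0.133). Kif2c, Kif4, Tpx2 and Nusap1 had fold changes between -0.62 (Kif4) and -0.34 (Kif2c).

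The 5 cytokinesis genes had the most negative median of the mitotic roles, -0.76. Prc1, which bundles the microtubules of the midzone, was at 5.53, 9.99 and 9.68 CPM in sgCtrl and 4.06, 5.53 and 4.73 CPM in sgPrdx2 livers, with a log2 fold change of -0.81 (SE 0.25, adjusted p = 0.107). Kif23, the midzone motor of the centralspindlin complex, was at 3.43, 6.23 and 6.51 CPM and 2.53, 3.35 and 3.01 CPM without overlap, with a log2 fold change of -0.86 (SE 0.27, adjusted p = 0.109). For both, liver 5.1 was about equal to the highest sgPrdx2 liver, 1.3. Cep55, Ect2 and Kif20a had fold changes of -0.76, -0.62 and -0.36.

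**Figure D3:**
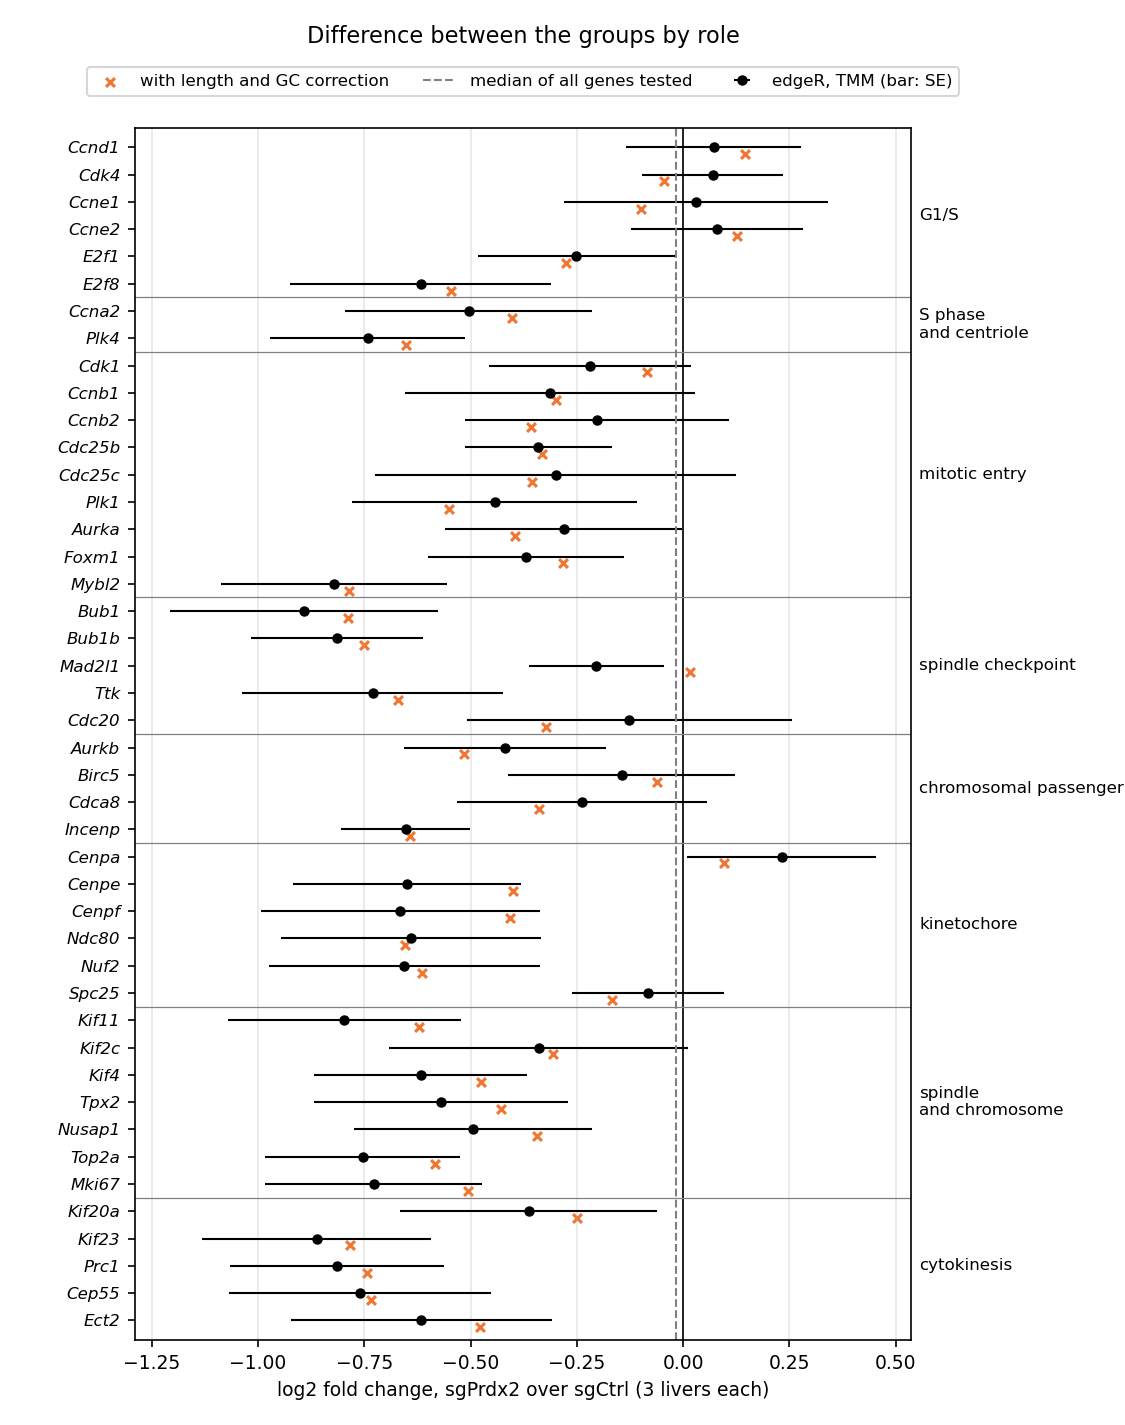
Log2 fold change of each member, sgPrdx2 over sgCtrl (3 livers each), by role. Black points are edgeR values with SE bars, orange crosses the values after removing trends on exon length and GC content in each library, and the dashed line the median of all genes tested (-0.02). The cyclins of G1/S and Cdk4 lie around 0 with TMM scaling and 35 of 36 mitotic members lie to the left of 0.

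Fold changes among the members moved with gene length. The summed exon length of the members ran from 1531 to 11130 bases, with a median of 3323. The 22 shorter members had a median log2 fold change of -0.31 and the 22 longer ones of -0.62. Over the 16542 tested genes with an exon length, the medians up to and above 3323 bases were 0.11 and -0.15. Across the 36 mitotic members Spearman's rho of fold change and exon length was -0.44 (a description across genes that share libraries), beside -0.33 over 16542 genes.

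**Figure D4:**
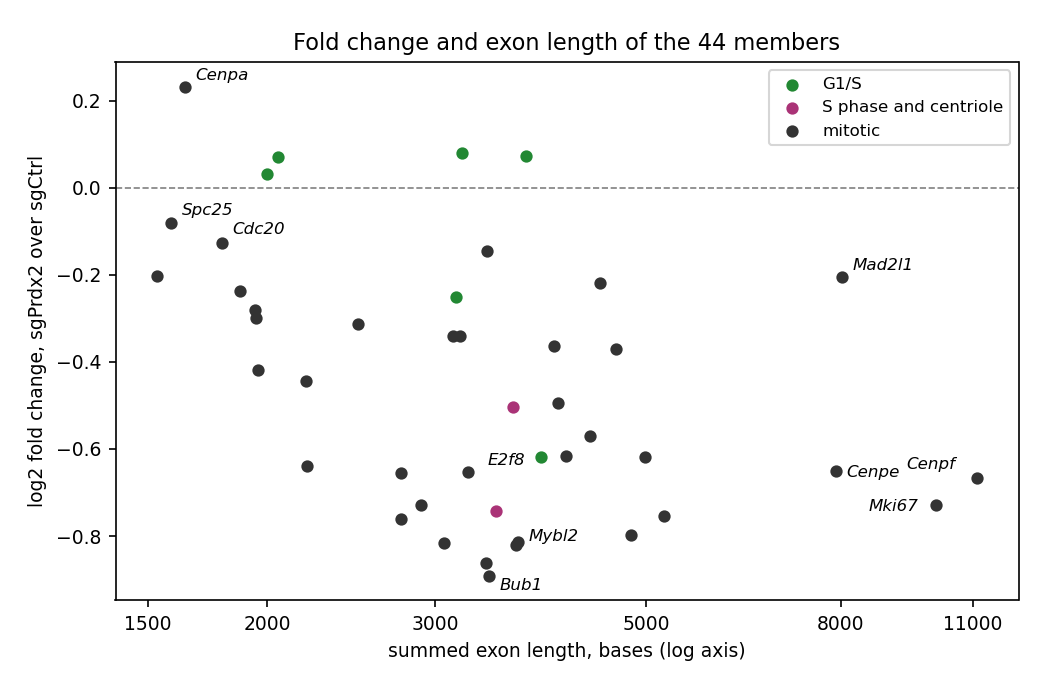
Log2 fold change (sgPrdx2 over sgCtrl, TMM) against summed exon length in bases (log axis), 1 point per member, coloured by role. Of the mitotic members, Cenpa (0.23), Spc25 (-0.08) and Cdc20 (-0.13), all short, lie highest, and Mki67 (-0.73) and Cenpf (-0.67) are among the longest. Mad2l1 (-0.20), also long at 8032 bases, and Birc5 (-0.14, 3402 bases) lie near the shortest member, Ccnb2 (-0.20, 1531 bases).

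The gap between shorter and longer members was widest in liver 3.2. Relative to the sgCtrl mean its shorter members had a median log2 ratio of -0.12 and its longer members of -0.53, whereas the medians were -0.64 and -0.74 in liver 1.1 and -0.19 and -0.36 in liver 1.3. Of the mitotic members, 16 had their highest sgPrdx2 value in liver 3.2, with a median exon length of 2695.5 bases, and 8 had their lowest there, with a median of 3659.5 bases. Without liver 3.2 rho was -0.26, and after the correction of length and GC content it was -0.09. With that correction the mitotic median was -0.42 and the G1/S median -0.07, 40 of 44 members were below 0, 9 had an unadjusted p under 0.05 and Incenp was called (-0.64, adjusted p = 0.0395).

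Further cell cycle genes were read as lists by role. Of 60 further mitotic genes, 49 had fold changes below 0 (median -0.44) and none was called by edgeR, with 15 lower and 3 higher at an unadjusted p under 0.05. Over all 17032 genes tested, 51.7% were below 0, and 2033 were lower and 2208 higher at that p. DESeq2 called 5 of the 60 genes, with Cenpm among them as higher, where it called 2065 of the 17032. The smallest edgeR p-values of the 60 belonged to Cenpm, a centromere protein (log2 fold change 1.33, SE 0.31, adjusted p = 0.0578), Spc24 of the NDC80 complex (log2 fold change 0.83, SE 0.23, adjusted p = 0.0801) and Cdca5 (sororin), which protects cohesion (log2 fold change -0.87, SE 0.26, adjusted p = 0.0967). Cenpm was at 2.28, 3.96 and 3.81 CPM in sgCtrl and 7.70, 5.94 and 11.8 CPM in sgPrdx2 livers, so that the members of one structure lay on both sides of 0.

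Of 15 other G1/S genes, 11 were below 0 with a median of -0.22, where 51.7% of all genes tested were below 0. Cdc25a, the phosphatase that activates CDK2, was called and fell from 13, 9.41 and 12.8 CPM in sgCtrl to 7.0, 6.51 and 6.48 CPM in sgPrdx2 livers, with a log2 fold change of -0.82 (SE 0.17, adjusted p = 0.0466). Here liver 5.1 was the highest control, and the call was lost with the correction of length and GC content (log2 fold change -0.67, adjusted p = 0.0653). Ccnd2 (log2 fold change -0.50, SE 0.14, adjusted p = 0.0889) and Skp2 (log2 fold change -0.42, SE 0.16, adjusted p = 0.164) did not pass the test.

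Of 14 brakes of the cycle, 10 were below 0 with a median of -0.18, where 51.7% of all genes tested were below 0. Cdkn1a, which encodes the CDK inhibitor p21, was called and fell from 30.6, 41.5 and 38.7 CPM to 18.2, 19.9 and 14.4 CPM, with a log2 fold change of -1.08 (SE 0.17, adjusted p = 0.0358). Cdkn2b (log2 fold change -0.89, SE 0.34, adjusted p = 0.156) and Rb1 (log2 fold change -0.30, SE 0.14, adjusted p = 0.229) were not called. Of 24 DNA replication genes, 18 were below 0 with a median of -0.31, and Pcna (log2 fold change -0.53, SE 0.14, adjusted p = 0.0752) and Mcm4 (log2 fold change -0.72, SE 0.20, adjusted p = 0.0864) were not called. The call of Cdc25a held without liver 7.1 (adjusted p = 0.0403) and that of Cdkn1a without liver 3.2 (adjusted p = 0.0377), and with any other liver left out neither held (0.0733 to 0.168).

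Summed markers of several liver cell types differed between the groups, and their part in the mitotic values was not tested. Over all 17032 genes tested, 262 were called lower and 305 higher by edgeR, and DESeq2 called 2065. At an unadjusted p under 0.05 (edgeR), 2033 of them were lower and 2208 higher, and 51.7% were below 0. Summed levels of 12 leukocyte markers were 418 to 491 CPM in sgCtrl and 248 to 281 CPM in sgPrdx2 livers. Of these 12, 10 were below 0 (median log2 fold change -0.27) and 3 were called lower, with 4 lower and 1 higher at an unadjusted p under 0.05. The sums of 12 macrophage markers were 4102 to 4656 and 2683 to 3598 CPM, with all 12 below 0 (median -0.51) and 2 called lower. Sums of 8 stellate cell and myofibroblast markers (1282 to 1838 and 1087 to 1111 CPM) and of 6 cholangiocyte markers (1630 to 1858 and 1217 to 1393 CPM) also did not overlap, with none called by edgeR (4 and 3 lower at an unadjusted p under 0.05, 3 and 1 called by DESeq2). The sum of 10 hepatocyte markers was 77110 to 83020 CPM in sgCtrl and 133400 to 178900 CPM in sgPrdx2 livers, with 5 called higher.

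Sums of 7 endothelial (236 to 260 and 164 to 242 CPM), 6 neutrophil (22.4 to 29.9 and 19.8 to 23.7 CPM) and 6 erythroid markers (156 to 200.3 and 189 to 257 CPM) overlapped. Still, 6 of the 7 endothelial markers were below 0 (median log2 fold change -0.74). Of these markers 1 was called lower by edgeR, 4 were lower at an unadjusted p under 0.05 and 3 were called by DESeq2. At that p 2 of 5 tested neutrophil markers were lower, and 1 erythroid marker was lower and 1 higher. Ly6g had at most 2 counts in any liver and was at 0 in all sgPrdx2 livers. Liver 5.1, the control with the lowest mitotic sum (171 CPM), had the highest leukocyte sum of all 6 livers (491 CPM) and the lowest stellate sum among controls (1282 CPM). Its macrophage sum (4656 CPM) was about equal to that of liver 7.2 (4642 CPM).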

How the data were processed

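RNA-Seq libraries of 6 whole livers (3 per group, 1 mouse each) were grouped by the sample labels. The authors deposited raw counts of reads per gene for 52459 genes, without normalization. The submitters' processing notes name HISAT2, HTSeq, DESeq2 and GRCm38, and tool versions and strandedness are not given in the sources used here, so that reads of overlapping genes may not be separated. A second deposited table, the authors' own DESeq2 comparison, was not used.

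edgeR 4.0.16 (R 4.3.3) was used on these counts. After filterByExpr (minimum count 10) and TMM scaling, sgPrdx2 and sgCtrl livers were compared by glmQLFit and glmQLFTest, the quasi-likelihood test, in 1 fit of the 6 livers without covariates. A gene was called when its p, adjusted by Benjamini-Hochberg over 17032 genes, was under 0.05. The biological coefficient of variation was 0.213, and each SE was taken as the size of the log2 fold change over the root of its F statistic. Liver values are CPM, and ratios by liver use log2(CPM + 0.1). Groups are small, and an exact permutation test of 3 livers against 3 could not go below p = 0.1.

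Exon lengths, GC content and gene positions come from GENCODE (GRCm38), matched by symbol, and promoters from RefSeq (GRCm38.p6). The alternatives were other scalings (RLE, upper quartile, total counts, 6 housekeeping genes), DESeq2 1.42.0, other filters and thresholds, shorter lists, a pseudocount of 1, a correction of length and GC content (16542 of 17032 genes and all 44 members had values), and leaving out each liver. The members, their roles, the other lists and the tests were chosen with earlier results of these data known. Values in each liver are given for the G1/S members, Ccna2, Cdk1, Ccnb1, Mki67, Top2a and the 2 members with the smallest p in each other role, and of other cell cycle lists up to 3 genes with the smallest p and those called are named (results on some genes are not reported here), with Cenpm singled out after its values were seen.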

Additional observations from a re-analysis of the deposited data

How the results depend on the processing

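The number of members called, 0 with TMM, was 0 with RLE, upper-quartile scaling and at least 10 counts in every liver and whichever liver was left out (0 to 0). It was 14 with total counts, 2 with housekeeping scaling, 6 with DESeq2, 2 without a filter, 1 with the length and GC correction and 2 at an adjusted p under 0.10. Members with an unadjusted p under 0.05 (14) numbered 31 with total counts, 32 with housekeeping scaling, 9 with the length and GC correction and 6 to 28 with a liver left out. The mitotic median (-0.53) was -0.90 with total counts and -0.91 with housekeeping scaling, where all genes moved to -0.39 and -0.38, and -0.75 to -0.36 with a liver left out. It was below 0 in every alternative run. The G1/S median (0.05) was -0.34 and -0.35 with those scalings, -0.071 with the length and GC correction, -0.11 without Ccnd1 and Cdk4, and -0.089 to 0.11 with a liver left out. Genes called overall (567) numbered 3247 with total counts, 989 with housekeeping scaling, 2066 with DESeq2, 1128 without a filter, 1120 with the length and GC correction, 0 at an adjusted p under 0.01 and 1767 under 0.10 (edgeR), and 0 to 619 with a liver left out. The causes were not tested.

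Fitted values near 0 changed sign without being called. With total counts and then housekeeping scaling they were -0.31 and -0.32 for Ccnd1, -0.31 and -0.32 for Cdk4, -0.37 and -0.38 for Ccne1, -0.28 and -0.28 for Ccne2, -0.15 and -0.16 for Cenpa and -0.37 and -0.38 for Prdx2 (0.01 with TMM). Prdx2 was at -0.0046 with upper-quartile scaling and -0.0050 without a filter. With the length and GC correction Prdx2 was at -0.11, Cdk4 at -0.044, Ccne1 at -0.099 and Mad2l1 at 0.016. Leaving out a liver gave -0.17 to 0.13 for Prdx2, -0.066 to 0.29 for Ccnd1, -0.070 to 0.17 for Cdk4, -0.32 to 0.29 for Ccne1, -0.51 to 0.15 for Cdc20, -0.39 to 0.045 for Birc5, -0.20 to 0.064 for Spc25, -0.47 to 0.046 for Ccnb2 and -0.49 to 0.0086 for Cdca8. With a pseudocount of 1 the mitotic medians of the sgPrdx2 livers were -0.57, -0.28 and -0.31. No paired analysis was possible because the groups share no replicate numbers. With 17 to 67 counts per liver, Mybl2 had the fewest counts among the members named.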
